A study of Homo sapiens with 18 samples.

Results

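9 genes that supply cells with serine, glycine, glutamine and related amino acids were followed through HGF stimulation of 3 head and neck squamous cell carcinoma (HNSCC) cell lines. They were the rows of the raw count table with the gene names SLC6A9, SLC1A5, SLC7A5, SLC7A11, SLC3A2, ASNS, PHGDH, PSAT1 and SHMT2, which are 9 of 19901 genes. All 9 were among the 15475 genes with enough counts to be tested. 5 of them code for parts of amino acid transporters of the plasma membrane and 4 for enzymes of amino acid synthesis.

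Serine is made from the glycolytic intermediate 3-phosphoglycerate by PHGDH, PSAT1 and the phosphatase PSPH, and serine hydroxymethyltransferases such as SHMT2 turn it into glycine while loading a carbon unit onto folate. Glutamine enters cells through SLC1A5, among other transporters, and serves as nitrogen donor for, among others, asparagine synthetase. Cells under amino acid shortage raise many of these genes through the transcription factor ATF4, and tumour cells often keep them high.

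mRNA was sequenced from FaDu and SCC-9 cells, which derive from primary tumors of the hypopharynx and the tongue, and from Detroit 562 cells, which derive from a metastasis of pharyngeal cancer. In each line 3 libraries came from cells left untreated and 3 from cells stimulated with 50 ng/mL HGF, the ligand of the receptor tyrosine kinase Met. The time was 16 h by the sample records and the study's sequencing methods, and 48 h by the series record. It was taken as 16 h. Detroit 562 and FaDu were grown in MEM-α and SCC-9 in a different medium, a DMEM mixture with hydrocortisone, so that differences of SCC-9 from the other lines cannot be told apart from differences of the medium. Each tumor type is represented by a single established line, and in such bulk RNA a smaller number of expressing cells and less RNA per cell cannot be told apart. The study states that the experiment was repeated but does not say that a replicate number stands for a separate culture, so p-values measure the spread between these libraries.

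Total counts ranged from 35304770 to 44003970 per library, and the members had between 225 counts (SLC6A9 in the library FaDu HGF 3) and 187220 counts (SLC7A5 in SCC-9 control 2) in a library. The 6 squamous epithelial markers EPCAM, CDH1, KRT5, KRT14, KRT17 and TP63 were present in every group, with summed normalized counts of 62300 to 424000, although KRT14 stayed at 34.1 to 57.3 in Detroit 562. PTPRC, the pan-leukocyte marker, did not exceed 3.24 normalized counts, CD3E did not exceed 3.83 and LYZ did not exceed 4.76, whereas CD68 ran from 673 to 2320, so that the summed level of the 4 leukocyte markers was 814 to 1620 in control and 1500 to 2250 in HGF-treated Detroit 562. The 4 fibroblast markers summed to 1190 to 2170 and 600 to 1110 in these groups, carried by COL1A1 and COL1A2 with PDGFRB at 0 in all 6 Detroit 562 libraries, and the 3 endothelial markers to 46.4 to 116 and 19.5 to 42.7. The part of these shifts in the results of the members was not tested.

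RefSeq start sites (build GRCh38.p14) were listed for 7 of the 9 members. Shown here are the 100 bases upstream of a start of SLC6A9, PHGDH, ASNS and SLC1A5. SLC6A9 and PHGDH are the members whose change with HGF met both thresholds given below. ASNS and SLC1A5 hold TGATGNAA upstream of a start. TGATGNAA is the core of the amino acid response element bound by ATF4 and C/EBP partners. SLC1A5 also rose with HGF in the metastasis-derived line, by less than the minimum size required. The sequences are therefore no comparison of changed with unchanged members. Each sequence runs 5′ to 3′ on the strand of its gene and ends at the base before the start, and capitals mark the motif. They lie at chr1:44031463-44031562 (minus strand), chr1:119711834-119711933 (plus), chr7:97872409-97872508 (minus) and chr19:46784815-46784914 (minus).
SLC6A9: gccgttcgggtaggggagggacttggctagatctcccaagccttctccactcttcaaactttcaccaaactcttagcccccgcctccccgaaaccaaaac
PHGDH: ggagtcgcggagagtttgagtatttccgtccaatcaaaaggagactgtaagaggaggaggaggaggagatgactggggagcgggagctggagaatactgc
ASNS: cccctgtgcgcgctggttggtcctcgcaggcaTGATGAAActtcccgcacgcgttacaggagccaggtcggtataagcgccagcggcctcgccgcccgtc
SLC1A5: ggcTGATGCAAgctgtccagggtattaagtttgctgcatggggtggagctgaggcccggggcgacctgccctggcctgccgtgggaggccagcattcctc

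In ASNS the match TGATGAAA lay 68 to 61 bases upstream of a start that is 1 of 2 listed, and in SLC1A5 the match TGATGCAA lay 97 to 90 bases upstream of a start that is 1 of 3 listed. SLC3A2 had the match TGATGTAA on the opposite strand 37 to 44 bases downstream of a start. In windows of 250 bases upstream to 50 bases downstream, searched on both strands, 1270 of 35116 listed promoters (3.62%) held TGATGNAA. The antioxidant response element core TGACNNNGC was found in 4687 of these promoters (13.3%), and among the members in SLC3A2, SLC7A5 and SLC1A5. The windows of SLC6A9, PHGDH and PSAT1 held neither set of letters.

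The question of the first comparison was how HGF changes these genes within each line. In Detroit 562, SLC6A9 and PHGDH were downregulated, 2.18-fold and 1.67-fold, and no member was upregulated where a call needed both an adjusted p under 0.1 and a change by 0.4 or more, up or down, on the log2 scale. These 2 of 9 members compare with 17.9% of all genes called in Detroit 562, of which 11.7% were called down and 6.16% up. The median log2 fold change of the 9 members was -0.23 and that of all genes -0.01. In FaDu and in SCC-9, edgeR called 0 of 9 members. 1 member in each line, SLC6A9, had an unadjusted p under 0.05, as did 1247 and 641 of the 15475 genes. DESeq2 with or without its fold change prior also called 0 members. Of all genes, edgeR called 0.0258% in FaDu and 0.0% in SCC-9. The study, with DESeq2 and the same thresholds, reported SLC6A9 as differentially expressed in FaDu and SCC-9 as well as in Detroit 562. The reason for this difference was not tested. With the replicate number as a block in the model, the count in Detroit 562 stayed at 2 of 9 (21.5% of all genes) and became 1 of 9 in FaDu, where 5.6% of all genes were then called, and 1 of 9 in SCC-9, where it was 1.97%, in both lines SLC6A9. The plot of normalized counts by library shows all values.

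**Figure D1:**
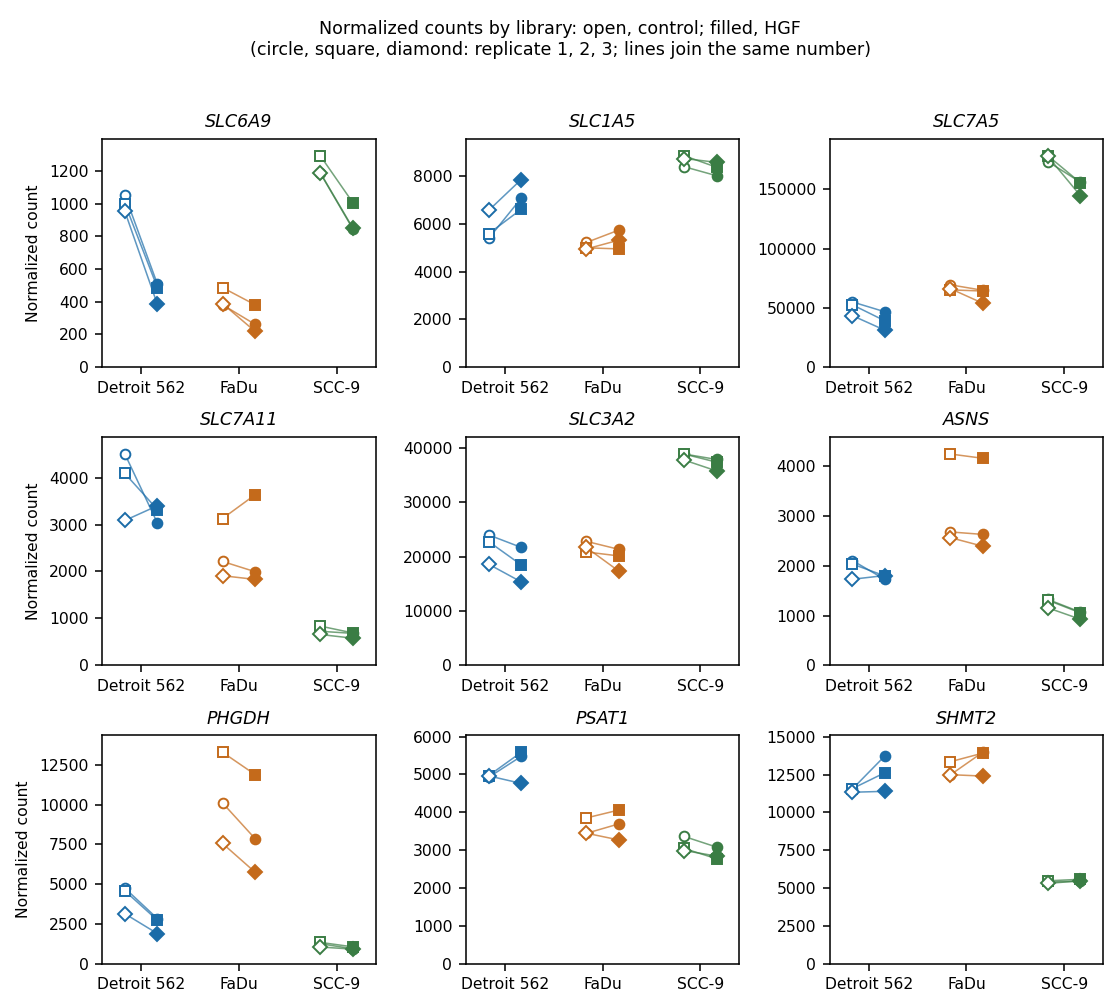
TMM-normalized counts (linear axis from 0) of the 9 members in each of the 18 libraries, control as open and HGF as filled symbols, with circle, square and diamond for replicates 1, 2 and 3 and lines between libraries of the same number. SLC6A9, PHGDH, SLC7A5 and SLC3A2 were each lower with HGF in all 9 pairs, and the gaps of SLC6A9 were widest in Detroit 562.

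SLC6A9 (ENSG00000196517.11, chr1:43991500-44031467, minus strand, GRCh38) codes for the glycine transporter GlyT1, which takes up glycine together with sodium and chloride. In Detroit 562 its normalized counts were 1053, 1001 and 953 in controls and 507, 486 and 383 with HGF. The HGF libraries lay far below the controls, with no overlap. This corresponds to -1.13 ± 0.16 on the log2 scale (SE, adjusted p = 0.000524), and the value stayed between -1.21 and -1.01 with any 1 of the 6 Detroit 562 libraries left out. In FaDu the counts were 381, 486 and 388 in controls and 261, 381 and 218 with HGF. Here the highest HGF library, replicate 2, reached the level of the lowest control, although each HGF library was lower than the control of its own number. The log2 fold change of -0.54 ± 0.16 had an adjusted p of 0.476, whereas the blocked model gave -0.56 ± 0.09 with an adjusted p of 0.00127. Without the library FaDu HGF 2 the model without a block called the fall as well (-0.80, adjusted p = 0.0523). In SCC-9, where the gene was most abundant, counts of 1188, 1294 and 1190 stood against 846, 1007 and 851, again without overlap. The log2 fold change of -0.44 ± 0.16 had an adjusted p of 1.0, and the blocked model gave -0.445 ± 0.08 with an adjusted p of 0.00531. The two-sided exact permutation test gave p = 0.1, the smallest that 3 libraries against 3 allow, in Detroit 562 and SCC-9, and p = 0.2 in FaDu.

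SLC1A5 (ENSG00000105281.12, chr19:46774883-46788594, minus strand) codes for ASCT2, a sodium-dependent exchanger of glutamine and other neutral amino acids. It is 1 of the members with a response element core in the sequences above. Its counts in Detroit 562 were 5398, 5598 and 6575 in controls and 7088, 6624 and 7873 with HGF. All HGF libraries were above all controls, the only such pattern in the upward direction among the members in Detroit 562. The log2 fold change of 0.30 ± 0.08 had an adjusted p of 0.013 but stayed under the minimum of 0.4. FaDu gave 5229, 5005 and 4956 in controls against 5751, 4959 and 5328, and SCC-9 gave 8411, 8873 and 8755 against 8032, 8388 and 8594. In both of these lines the groups overlapped, with log2 fold changes of 0.08 ± 0.08 and -0.06 ± 0.08.

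SLC7A5 (ENSG00000103257.8, chr16:87830023-87869488, minus strand) codes for LAT1, the light chain that exchanges glutamine for leucine and other large neutral amino acids. In Detroit 562 it had 54909, 52484 and 43348 normalized counts in controls and 46581, 38924 and 30986 with HGF. Each HGF library was lower than its own control, but HGF 1 lay above control 3. The change of -0.37 ± 0.12 on the log2 scale (adjusted p = 0.0289) was just under the minimum and passed it without control 3 (-0.47) or without HGF 1 (-0.52). FaDu had 69407, 65104 and 66232 against 64770, 64148 and 53836, and SCC-9 had 173439, 178384 and 177780 against 156002, 155560 and 144614. The HGF libraries of both lines lay below all their controls, by a narrow margin in FaDu, with log2 fold changes of -0.14 ± 0.12 and -0.22 ± 0.12 and adjusted p of 0.749 and 1.0. SLC7A5 and PSAT1 have pseudogene copies of very similar sequence. The study gives default STAR settings and a bedtools command that names no filter for reads with a single match. Their counts may therefore include reads from those copies.

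SLC7A11 (ENSG00000151012.13, chr4:138164097-138242349, minus strand) codes for xCT, the light chain that imports cystine in exchange for glutamate. Detroit 562 controls had 4505, 4089 and 3088 normalized counts and HGF libraries 3032, 3321 and 3401. The spread of the controls covered most HGF values, and the pair of replicate 3 moved upwards while the other pairs moved downwards. The FaDu libraries had 2214, 3129 and 1910 in controls and 1995, 3636 and 1831 with HGF, and the SCC-9 libraries 725, 836 and 657 against 681, 690 and 578. No line gave a call, with log2 fold changes of -0.26 ± 0.22, 0.04 ± 0.22 and -0.19 ± 0.23 and adjusted p of 0.411 to 1.0.

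SLC3A2 (ENSG00000168003.16, chr11:62856102-62888875, plus strand) codes for the heavy chain CD98hc, which both light chains need to reach the plasma membrane. Its counts were 24011, 22782 and 18617 in Detroit 562 controls and 21712, 18493 and 15359 with HGF. All 3 pairs were lower with HGF, yet the groups overlapped. The FaDu counts were 22828, 20873 and 21696 against 21350, 20141 and 17328, and those of SCC-9 38918, 38907 and 37808 against 37909, 37414 and 35793. Here too each of the 6 pairs was lower with HGF and the groups overlapped. The log2 fold changes were -0.23 ± 0.11, -0.15 ± 0.11 and -0.06 ± 0.11 in the order of the lines, with adjusted p of 0.125, 0.7 and 1.0.

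PHGDH (ENSG00000092621.12, chr1:119648411-119744226, plus strand), 3-phosphoglycerate dehydrogenase, catalyses the step that commits carbon from glycolysis to serine. Detroit 562 had 4741, 4570 and 3132 normalized counts in controls and 2829, 2723 and 1886 with HGF. Replicate 3 was the lowest of both groups, and the highest HGF library stayed below the lowest control. The differences within pairs were nearly equal, at -0.745, -0.747 and -0.732 on the log2 scale. Without a block the fall was -0.74 ± 0.24 on the log2 scale (adjusted p = 0.0351), and the call was lost without control 1 (adjusted p = 0.144), without control 2 (0.116) or without HGF 3 (0.146). The blocked model gave the same log2 fold change with an SE of 0.0533 and an adjusted p of 1.16e-07. FaDu had 10098, 13283 and 7550 in controls and 7852, 11882 and 5743 with HGF, and SCC-9 1248, 1334 and 1042 against 931, 1052 and 910. Both lines were lower with HGF in 3 of 3 pairs, while their groups overlapped. The log2 fold changes of -0.28 ± 0.24 and -0.32 ± 0.25 (adjusted p = 0.749 and 1.0) had an adjusted p of 0.00148 and 0.00724 in the blocked model but stayed under the minimum of 0.4.

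PSAT1 (ENSG00000135069.13, chr9:78297143-78330093, plus strand), phosphoserine aminotransferase, acts directly after PHGDH and takes its amino group from glutamate. Its counts in Detroit 562 were 4926, 4969 and 4963 in controls and 5479, 5587 and 4764 with HGF. The controls were almost identical, and 2 of 3 HGF libraries lay above them and the third below. FaDu showed 3444, 3851 and 3447 against 3694, 4060 and 3269, and SCC-9 showed 3362, 3044 and 2990 against 3080, 2772 and 2842. The log2 fold changes of 0.09 ± 0.08, 0.04 ± 0.08 and -0.11 ± 0.08 gave no call. In the same lines PHGDH, the enzyme before it, was lower with HGF in every pair.

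SHMT2 (ENSG00000182199.10, chr12:57229327-57234935, plus strand) codes for the mitochondrial serine hydroxymethyltransferase. In Detroit 562, counts of 11547, 11570 and 11327 in controls stood against 13741, 12624 and 11389 with HGF. All 3 pairs were higher with HGF, the third by very little, and the groups overlapped. FaDu gave 12466, 13342 and 12490 against 13970, 13913 and 12398, and SCC-9 gave 5390, 5473 and 5303 against 5455, 5572 and 5469. The changes of 0.13 ± 0.06, 0.07 ± 0.06 and 0.03 ± 0.06 on the log2 scale gave no call (adjusted p = 0.139, 0.754 and 1.0).

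ASNS (ENSG00000070669.16, chr7:97852118-97872542, minus strand), asparagine synthetase, uses glutamine to turn aspartate into asparagine and is a textbook target of ATF4. Its Detroit 562 counts were 2105, 2034 and 1729 in controls and 1724, 1795 and 1804 with HGF. FaDu counts were 2680, 4246 and 2566 against 2630, 4160 and 2393. These groups overlapped in both lines, and the log2 fold changes were -0.14 ± 0.19 and -0.05 ± 0.19. In SCC-9, counts of 1324, 1308 and 1155 in controls stood against 1069, 1054 and 925 with HGF, all lower. The log2 fold change of -0.31 ± 0.19 had an adjusted p of 1.0, while the blocked model gave an adjusted p of 0.0103 with the size still under the minimum.

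**Figure D2:**
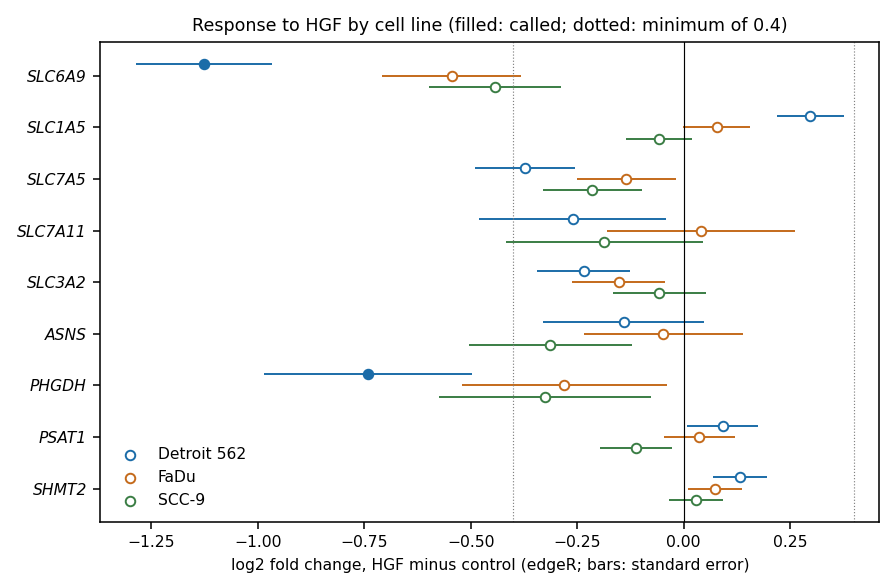
log2 fold change of each member, HGF minus control, in Detroit 562 (blue), FaDu (orange) and SCC-9 (green), from the edgeR model without a block. Bars are the standard error, dotted lines mark the minimum of 0.4 and filled points are called. Only SLC6A9 (-1.13) and PHGDH (-0.74) in Detroit 562 are filled, and the points of SLC1A5 lie on both sides of 0.

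Whether the lines responded differently was tested by the difference of their log2 fold changes. Without a block, edgeR called no member in any pair of lines at an adjusted p below 0.1. SLC6A9 had an unadjusted p under 0.05 between Detroit 562 and both other lines and SLC1A5 between Detroit 562 and SCC-9. So did 1788 of the 15475 genes between Detroit 562 and FaDu and 2378 between Detroit 562 and SCC-9. At an adjusted p below 0.1, 0.239% of all genes differed between Detroit 562 and FaDu, 0.924% between Detroit 562 and SCC-9 and 0.0% between FaDu and SCC-9. DESeq2 with its prior called SLC6A9 and SLC1A5 between Detroit 562 and SCC-9, and 0 members in the other pairs of lines. The replicate block changed these calls. With it, the log2 fold change of SLC6A9 in Detroit 562 differed from that in FaDu by -0.57 ± 0.12 (adjusted p = 0.00902) and from that in SCC-9 by -0.69 ± 0.11 (adjusted p = 0.000966). PHGDH differed by -0.44 ± 0.07 and -0.42 ± 0.08 against the same lines (adjusted p = 0.00227 and 0.00244). SLC1A5 rose more in Detroit 562 than in FaDu by 0.22 ± 0.06 (adjusted p = 0.0341) and differed from SCC-9 by 0.36 ± 0.06 (adjusted p = 0.00155). Smaller differences were called for SLC7A5 against FaDu (-0.24, adjusted p = 0.075) and for SLC3A2 (-0.18, adjusted p = 0.0988) and PSAT1 (0.20, adjusted p = 0.0714) against SCC-9. In all, the blocked model called 4 of 9 members between Detroit 562 and FaDu and 5 of 9 between Detroit 562 and SCC-9, where 19.1% and 26.9% of all genes were called. Between FaDu and SCC-9 it called 0 of 9 and 1.32% of all genes, with 2 members at an unadjusted p under 0.05, beside 1525 of the 15475 genes. The comparisons of Detroit 562 with the other lines share its libraries.

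The second question was how much of each gene the untreated lines contained. Levels are given per kilobase of exon and scaled to library size (RPKM-like, from normalized counts), with exon lengths from GENCODE 44. Reads were counted over whole genes, introns included, so that levels of different genes compare only roughly on this scale, while the length cancels when 1 gene is compared between lines. For PHGDH the length of 9187 bases includes alternative exons far upstream of the RefSeq start printed above, which lowers its level on this scale. SLC7A5 had the highest level on this scale in all 3 lines, and the lowest was that of SLC6A9 in Detroit 562 and FaDu and of SLC7A11 in SCC-9. The plot of untreated levels shows the order.

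**Figure D3:**
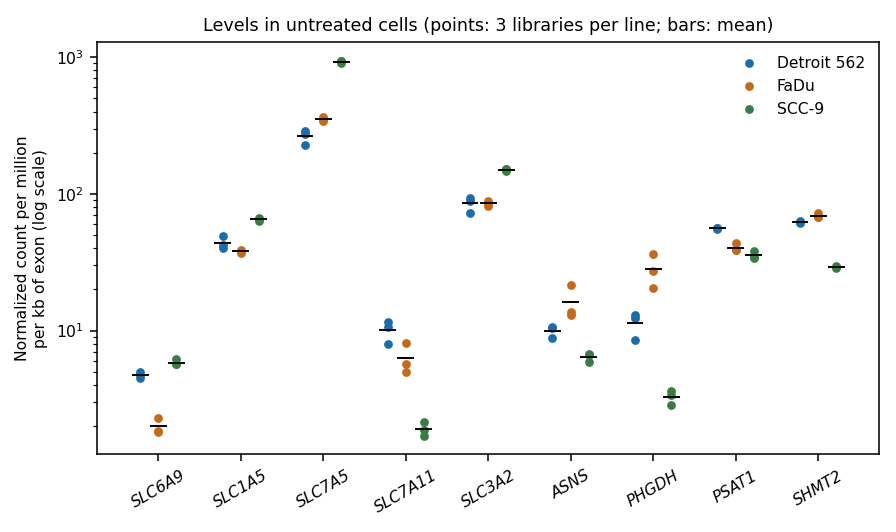
Levels of the 9 members in untreated cells, in library-scaled normalized counts per kb of exon on a log scale. Points are the 3 control libraries of each line and bars their mean. SLC7A5 is highest in every line, reaching 924 in SCC-9, while PHGDH spans from 3.28 in SCC-9 to 28 in FaDu.

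Among the members, the transporter genes SLC7A5, SLC3A2 and SLC1A5 were highest in SCC-9. SLC7A5 had a level of 924 ± 14.1 (SD, n = 3) in SCC-9, 350.0 ± 11.7 in FaDu and 263 ± 31.9 in Detroit 562. SCC-9 was 3.51-fold above Detroit 562 and 2.64-fold above FaDu, both called. The smaller difference between FaDu and Detroit 562 (-0.41, adjusted p = 0.00439) fell under the minimum without Detroit 562 control 3 (-0.32) or FaDu control 1 (-0.39). The heavy chain gene SLC3A2 had a level of 150.0 ± 2.49 in SCC-9 and of 85.1 in both other lines, with an SD of 11.0 in Detroit 562 and 3.83 in FaDu. It was 1.77-fold higher in SCC-9 than in either line, while the log2 difference between Detroit 562 and FaDu was 0.00 ± 0.11 (adjusted p = 1.0). SLC1A5 was at 65.0 ± 1.8 in SCC-9, 43.8 ± 4.71 in Detroit 562 and 37.9 ± 1.09 in FaDu, and the lower pair of lines differed by less than the minimum (0.21, adjusted p = 0.0246).

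The cystine light chain had the reverse order. SLC7A11 reached 10.1 ± 1.88 in Detroit 562 and 6.25 ± 1.64 in FaDu but 1.91 ± 0.233 in SCC-9. The log2 differences of Detroit 562 and FaDu from SCC-9 were 2.40 ± 0.235 and 1.71 ± 0.231, and that between Detroit 562 and FaDu was 0.69 ± 0.22 (adjusted p = 0.0103). SLC6A9 was at 5.82 ± 0.287 in SCC-9, 4.76 ± 0.236 in Detroit 562 and 1.99 ± 0.28 in FaDu. Detroit 562 and SCC-9 were not told apart by the thresholds (-0.29, adjusted p = 0.0996), whereas FaDu was 2.4-fold lower than Detroit 562 and 2.93-fold lower than SCC-9.

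Among the enzymes, PHGDH differed most. Its level was 28 ± 7.8 in FaDu, 11.3 ± 2.4 in Detroit 562 and 3.28 ± 0.407 in SCC-9, an 8.53-fold difference between FaDu and SCC-9 (log2 3.09 ± 0.26, adjusted p = 1.24e-08). ASNS followed the same order with 16.1 ± 4.78, 9.96 ± 1.02 and 6.43 ± 0.477, and all its differences were called. SHMT2 was at 69.3 ± 2.71 in FaDu and 62.4 ± 0.73 in Detroit 562, which differed by -0.15, and at 29.3 ± 0.463 in SCC-9. PSAT1 varied least of the enzymes, from 56.0 ± 0.261 in Detroit 562 to 40.5 ± 2.65 in FaDu and 35.4 ± 2.27 in SCC-9, and the last 2 lines differed by less than the minimum (0.19, adjusted p = 0.0455). In all, 6 of 9 members were called between Detroit 562 and FaDu, 8 of 9 between Detroit 562 and SCC-9 and 8 of 9 between FaDu and SCC-9. Of all genes, 61.0%, 65.4% and 64.2% were called in these comparisons, so that a called difference between the lines was the common case.

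For several members, replicates of the same number stood apart in both arms of a line. In FaDu, replicate 2 was the highest of its group in both arms for ASNS (log2 deviation from the group mean 0.46 in control and 0.49 with HGF), PHGDH (0.40 and 0.55) and SLC7A11 (0.40 and 0.62), and with a smaller control deviation for SLC6A9 (0.23 and 0.45). CHAC1, a glutathione-degrading enzyme and ATF4 target, deviated by 0.99 and 1.22 in the same libraries, with 433 and 468 normalized counts against 126 to 157 in the other 4, and DDIT3, the stress factor CHOP, by 0.55 and 0.45. ATF4 itself deviated by 0.18 and 0.195. The light and heavy chains SLC7A5 and SLC3A2 did not share this, with deviations of -0.06 to 0.08. In Detroit 562, replicate 3 was the lowest of both arms for SLC6A9, SLC7A5, SLC3A2, PHGDH and SHMT2. The values with the replicate block and with single libraries left out stand beside each member above where they changed a call.

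**Figure D4:**
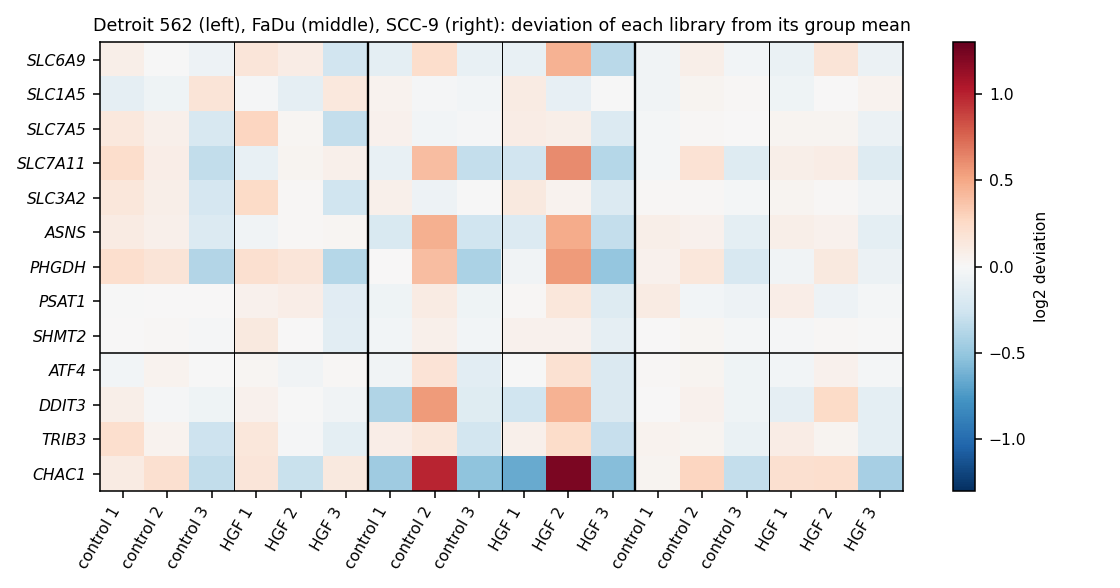
Heat map of log2 deviations of the 18 libraries (columns) from the mean of their own group for the 9 members and 4 genes of the ATF4 response (rows), with red for above and blue for below the mean. The columns control 2 and HGF 2 of FaDu are red for ASNS, PHGDH, SLC7A11, DDIT3 and CHAC1, up to 1.22.

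By the root mean square difference of centred log2 normalized counts over the 18 libraries, the genes with profiles most alike to that of SLC6A9 were ZNF358 (0.234), CARHSP1 (0.256) and PDCD4 (0.259), against an SD of SLC6A9 itself of 0.814. For PHGDH they were TNFAIP2 (0.227), SYNGR1 (0.28) and RHBDL2 (0.284), with an SD of 1.35. The closest gene was GPN1 (0.0771) for SLC1A5, FBXL15 (0.0836) for SLC3A2, IGFBP6 (0.191) for ASNS, DOLPP1 (0.0764) for PSAT1 and SF3B2 (0.0838) for SHMT2. For SLC7A11 it was the readthrough gene TNFSF12-TNFSF13 (0.247), whose counts include reads of the genes it spans, followed by ZBED3 (0.251). Most of the spread in these profiles lay between the lines.

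The other genes of the pathways were taken as 6 lists with 126 genes, of which 117 were tested. In Detroit 562, 7 were called up and 13 down, and these 20 of 117 genes are about the share of all genes called. The plot of the lists shows each gene.

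**Figure D5:**
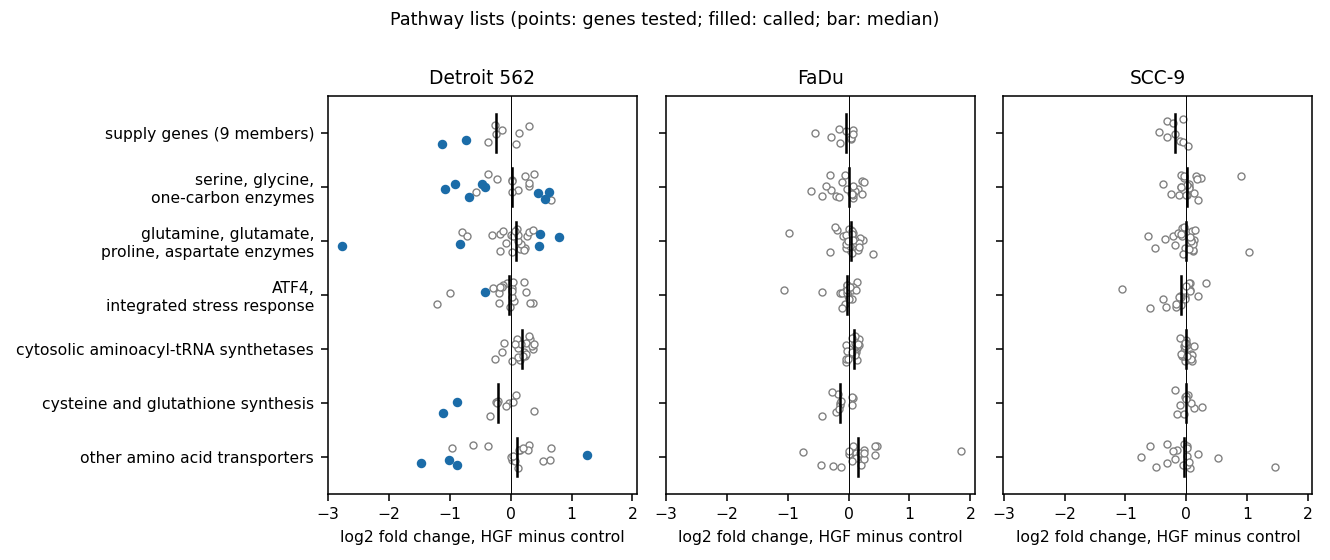
log2 fold changes, HGF minus control, of the members and of the tested genes of 6 pathway lists in each line. Points are genes, filled where called, with vertical jitter that carries no value, and bars are medians. Filled points occur only in the Detroit 562 panel, with PRODH at -2.77 as the lowest.

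Of 20 enzymes and carriers of serine, glycine and one-carbon metabolism, 3 rose and 5 fell in Detroit 562, beside 6.16% and 11.7% of all genes, with a median of 0.03. The number called ran from 4 to 12 with 1 library left out. The 3 that rose are carriers: SLC25A32, the mitochondrial folate carrier (0.63 ± 0.15, adjusted p = 0.00816), SLC19A1, the reduced folate carrier of the plasma membrane (0.57 ± 0.10, adjusted p = 0.00213), and SFXN1, the mitochondrial serine carrier (0.46 ± 0.07, adjusted p = 0.00075). The 5 that fell are enzymes. They included AMT of the glycine cleavage system (-1.08 ± 0.41, adjusted p = 0.0649), ALDH1L1, a cytosolic formyltetrahydrofolate dehydrogenase (-0.92 ± 0.29, adjusted p = 0.0305), serine racemase SRR (-0.47 ± 0.13, adjusted p = 0.0185) and SHMT1, the cytosolic counterpart of SHMT2 (-0.42 ± 0.12, adjusted p = 0.0164). AMT overlaps another gene on its strand, and its mean was 50.6 normalized counts in controls. AMT, ALDH1L1 and SHMT1 were not called without control 1, control 2 or HGF 3, AMT also not without HGF 2, and SRR not without control 1. PSPH, the last enzyme of serine synthesis, had 714.5 ± 47.6 normalized counts in controls and 727.9 ± 90.5 with HGF (0.03 ± 0.11), and MTHFD2, the mitochondrial folate enzyme, 3389 ± 485 and 4182 ± 329 (0.30 ± 0.08, adjusted p = 0.0158, under the minimum).

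Of 26 enzymes of glutamine, glutamate, proline and aspartate, 3 rose and 2 fell in Detroit 562, with a median of 0.09. GLUL, glutamine synthetase, had 16838, 15849 and 12304 normalized counts in controls and 9004, 9190 and 7076 with HGF, all lower. Its log2 fold change was -0.83 ± 0.12, with an adjusted p of 0.000673. PRODH, proline dehydrogenase, fell from 916, 766 and 363 to 137, 107 and 52.5 (-2.77 ± 0.42, adjusted p = 0.000821), the widest change of any listed gene tested in Detroit 562. PPAT, which feeds glutamine nitrogen into purines, rose by 0.47 ± 0.11 (adjusted p = 0.00633), less than the minimum without HGF 3, and ASL, argininosuccinate lyase, by 0.49 ± 0.07 (adjusted p = 0.00059), the latter with an overlapping gene on its strand.

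Of 28 other plasma membrane amino acid transporters, 20 were tested, of which 1 rose and 3 fell in Detroit 562. SLC6A15, a neutral amino acid transporter related to SLC6A9, rose from 36.1 ± 5.24 to 86.2 ± 1.77 normalized counts (1.25 ± 0.13, adjusted p = 0.000116), far below its level of 1624 ± 183 in FaDu controls and 2312 ± 85.4 in SCC-9 controls. SLC6A14, another neutral and cationic amino acid transporter, fell from 182.6 ± 10.6 to 66.0 ± 13.5 (-1.47 ± 0.22, adjusted p = 0.00135), and was at 0 in all 6 FaDu libraries. SLC1A3, a glutamate and aspartate transporter, fell from 11470 ± 1410 to 5690 ± 810 (-1.01 ± 0.11, adjusted p = 0.000116). SLC1A4, the serine and alanine exchanger closest to SLC1A5, fell from 106.1 ± 17.8 to 57.4 ± 9.04 (-0.88 ± 0.31, adjusted p = 0.0458), a call that was lost without control 1, control 2, HGF 2 or HGF 3. SLC38A2, the glutamine transporter SNAT2, showed 0.03 ± 0.15.

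Of 12 genes of cysteine and glutathione synthesis, 11 were tested, and 2 fell in Detroit 562. GCLC, the catalytic subunit of the enzyme that joins glutamate and cysteine, went from 19500 ± 6750 to 9041 ± 2390 (-1.11 ± 0.28, adjusted p = 0.00944), and GGT1, which splits extracellular glutathione, from 878.1 ± 175 to 475.7 ± 131 (-0.88 ± 0.20, adjusted p = 0.00544), with SNRPD3 overlapping it on the same strand. Of 20 genes of ATF4 and the integrated stress response, EIF2AK3, the kinase PERK, was the single call (-0.43 ± 0.11, adjusted p = 0.00875), and it fell under the minimum without control 1, control 2 or HGF 1. ATF4 had 8039 ± 258 normalized counts in controls and 8004 ± 227 with HGF, with a log2 fold change of -0.01 ± 0.09. DDIT3, which shares reads with an overlapping gene, TRIB3 and CHAC1 had log2 fold changes of -0.05, -0.14 and -0.13, with adjusted p of 0.876, 0.52 and 0.868. Of the 20 cytosolic aminoacyl-tRNA synthetases, edgeR and DESeq2 called 0 in Detroit 562, although 12 had an adjusted p under 0.1 in edgeR. An unadjusted p under 0.05 was found for 14 of them, beside 5947 of all 15475 genes. The median of the synthetases was 0.18, and 17 of 20 lay above 0, although none reached the minimum.

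In FaDu and SCC-9, edgeR without a block called 0 of 117 listed genes, and DESeq2 called 0 with or without its prior. In edgeR 7 and 6 had an unadjusted p under 0.05, beside 1247 and 641 of all 15475 genes. The median log2 fold change of the listed genes was 0.04 in FaDu and -0.015 in SCC-9, against -0.004 and 0.001 for all genes. With the block, 8 of 117 listed genes were called in FaDu, where 5.6% of all genes were called, and 4 of 117 in SCC-9, where it was 1.97%. The FaDu count is near the share of all genes. In FaDu these included the falls of PRODH (-0.96, adjusted p = 0.0106), GCLC (-0.46, adjusted p = 0.00139) and SLC1A4 (-0.45, adjusted p = 0.00484), genes that were also called down in Detroit 562. The others in FaDu were falls of CEBPB, NUPR1, SLC7A8 and ALDH1L2 and a rise of SLC7A2, and those in SCC-9 were falls of ASS1, SLC7A7 and SLC7A8 and a rise of SLC7A2. GLUL had blocked log2 fold changes of -0.24 in FaDu and -0.19 in SCC-9, neither of which reached the minimum.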

How the data were processed

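mRNA sequencing of 18 libraries, 3 per cell line and treatment, was analysed. According to the submitters' processing notes and the study's methods, the authors removed adapters with cutadapt (1.16), mapped to GRCh38.p12 and GENCODE 28 with STAR (2.5.2b) and counted reads per gene with bedtools on the strand of a stranded kit. The deposited values are raw counts, whole numbers per gene over its full extent, introns included. The submitters also name DESeq2 (1.22.1). Reads in genes that overlap on a strand count for both, and no member has such a neighbour among the genes of the raw count table.

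edgeR 4.0.16 (with limma 3.58.1, in R 4.3.3) was the main tool and DESeq2 1.42.0 an alternative. filterByExpr on the 6 groups left 15475 genes, libraries were scaled by TMM, and all 18 libraries entered a quasi-likelihood model with a mean for each of the groups. Adjusted p-values are Benjamini-Hochberg values of edgeR's quasi-likelihood test over all genes tested. A call needed an adjusted p under 0.1 together with a change by 0.4 or more on the log2 scale, differences between responses at the adjusted p alone. Deviations of control and HGF libraries of the same number from their group means correlated across genes, which are not independent. The r was 0.248, 0.116 and 0.399 (Detroit 562), 0.324, 0.383 and 0.511 (FaDu) and 0.282, 0.168 and 0.247 (SCC-9), and a replicate block was therefore run. In Detroit 562, control 1 with HGF 2 (0.186) and control 2 with HGF 1 (0.0958) also had a positive r. The numbers thus hardly separate replicates 1 and 2 of Detroit 562, a limit of its blocked values. In FaDu, control 1 with HGF 2 had 0.122, and all other unlike numbers had a negative r. Log2 differences of pairs used normalized counts plus 0.5, and log2 deviations used a larger added constant. The fits were also run on simulated data with known changes. The only requirement set there was that the model without a block recover most of these changes. False calls and the blocked model had no such requirement.

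The members and lists were chosen with earlier results of these data known. The study had reported SLC6A9 from these same libraries, so its calls here are not independent of that report. Named were all members, PSPH, MTHFD2, GLUL, SLC1A4, SLC38A2, GCLC, ATF4, DDIT3, TRIB3 and CHAC1, per list and line up to 3 called genes with the largest rise and 3 with the largest fall, and 3 most alike genes per member, by root mean square difference. SRR, SHMT1 and the further genes called by the blocked model were named after their values were seen. Each result was recomputed with the replicate block, with size factors of DESeq2, with no filter, by DESeq2 with and without its prior, from the compared lines alone, and with single libraries left out, each of 18 for counts of calls and those of the compared lines for single genes. Some genes that this rule names are not reported here. RefSeq promoters were listed for 7 members, and SLC7A11 and SHMT2 were not among them.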

Additional observations from a re-analysis of the deposited data

Results flagged for a closer look

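The response to HGF differed between lines for members in the blocked edgeR model, by Detroit 562 minus FaDu and Detroit 562 minus SCC-9. SLC6A9 differed by -0.57 and -0.69, SLC1A5 by 0.22 and 0.36, and PHGDH by -0.44 and -0.42. SLC7A5 differed by -0.24 against FaDu, and SLC3A2 by -0.18 and PSAT1 by 0.20 against SCC-9. SLC1A5 was higher with HGF in 3 of 3 pairs of Detroit 562 and in 0 of 3 of SCC-9, a count that was not tested as such.

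Of the other genes, the model without a block found differences for SLC1A3 of -0.75 against FaDu (adjusted p = 0.0865) and -0.69 against SCC-9 (adjusted p = 0.0705). SLC6A15 differed by 1.00 (adjusted p = 0.0209) and 1.23 (adjusted p = 0.00414) against the same lines. ASL differed by 0.41 against SCC-9 (adjusted p = 0.0972). With 1 library left out, the adjusted p of SLC1A3 ran from 0.0213 to 0.292 and from 0.0154 to 0.236, and that of ASL from 0.0305 to 0.279. SLC6A14 differed by -2.93 against SCC-9 (adjusted p = 0.0242), with 0 of 3 pairs higher in Detroit 562 and 3 of 3 in SCC-9, where its means were 4.25 and 11.8 normalized counts. With the block, responses of the 117 listed genes were called higher for 21 and lower for 13 in Detroit 562 minus FaDu and for 33 and 20 in Detroit 562 minus SCC-9, beside 19.1% and 26.9% of all genes. 12 of 20 aminoacyl-tRNA synthetases were among the higher and 1 among the lower against SCC-9.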

How the results depend on the processing

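Of the counts of called genes, 144 stayed within 1.5 times under the alternatives that kept all libraries and 18 did not. The replicate block raised the members called in FaDu and SCC-9 from 0 to 1 each, and those whose response differed to 4 (Detroit 562 and FaDu) and 5 (Detroit 562 and SCC-9). It gave 1 serine, 1 glutamine, 3 transporter, 1 cysteine and 2 ATF4 response genes in FaDu, 1 glutamine and 3 transporter genes in SCC-9, and 7 transporter and 3 ATF4 response genes in Detroit 562, and changed no call of a member beyond those given with the results. In Detroit 562 it called 3 serine genes up and 6 down and 3 glutamine genes up and 3 down. DESeq2 found 2 members whose response differed between Detroit 562 and SCC-9 with its prior and 2 without it. A model of the compared lines alone found 1 such member, 1 glutamine gene in SCC-9 and 2 ATF4 response genes in Detroit 562. The cause was not tested. DESeq2's size factors in edgeR and leaving out the filter moved no count beyond 1.5 times.

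With 1 library left out, the members called numbered 1 to 3 in Detroit 562, 0 to 1 in FaDu and 0 in SCC-9, and 0 to 1 differed in response between Detroit 562 and SCC-9. In Detroit 562 the lists gave 4 to 12 serine, 3 to 8 transporter, 2 to 4 cysteine, 0 to 2 ATF4 response and 0 to 2 synthetase genes. The serine count was 4 without control 1 and 5 without control 2 or HGF 3. The transporter count was 8 without control 3 and 7 without HGF 1 or FaDu HGF 2, and the cysteine count 4 without control 3 or HGF 2. The ATF4 response count was 0 without control 1, control 2 or HGF 1 and 2 without FaDu HGF 2, and the synthetase count 2 without control 3 and 1 without HGF 3.

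Signs turned only in values that the model without a block did not call. SLC3A2 between untreated Detroit 562 and FaDu was -0.008 with the block and 0.0 in the compared lines alone, and ATF4 in Detroit 562 was 0.005 without the filter. With 1 library left out, SLC3A2 ran from -0.072 to 0.103. In FaDu ASNS ran from -0.333 to 0.222, PSAT1 from -0.041 to 0.126, SLC7A11 from -0.337 to 0.27 and NUPR1 from -1.812 to 0.12. In Detroit 562 ATF4 ran from -0.027 to 0.02, CHAC1 from -0.267 to 0.003, PSPH from -0.026 to 0.127 and SLC38A2 from -0.146 to 0.166. ALDH1L1 in Detroit 562 (adjusted p = 0.116) and the differences in response from FaDu of SLC1A3 (0.292) and SLC6A15 (0.152) were not called in the compared lines alone, nor that of ASL from SCC-9 without the filter (0.114). The model of Detroit 562 and FaDu alone called 0 of all 14961 genes tested for a difference in response.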

Other observations

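Ratios of members were computed per exon length after the values had been seen and were not tested. The counts include introns, so the size of a ratio is rough. The light chain SLC7A5 exceeded the heavy chain SLC3A2 3.07 to 3.12 times in Detroit 562 controls and 2.71 to 2.88 times with HGF. In FaDu the range was 4.08 to 4.19 and 4.07 to 4.27, and in SCC-9 5.98 to 6.31 and 5.42 to 5.58. The groups of Detroit 562 and of SCC-9 did not overlap, and those of FaDu did. SLC7A11 was 0.11 to 0.124 of SLC3A2 in Detroit 562 controls and 0.0115 to 0.0142 in SCC-9 controls.

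The ratio of mitochondrial SHMT2 to cytosolic SHMT1 was 4.3, 4.62 and 5.74 in Detroit 562 controls and 7.16, 6.4 and 7.73 with HGF, without overlap. In FaDu it was 4.22 to 5.26 and 5.63 to 5.76, and in SCC-9 4.86 to 5.45 and 5.56 to 5.83, in each case with all HGF libraries above the controls.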
